A study of Mus musculus with 8 samples.

Results

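The enzymes that build cholesterol and fatty acids, with the genes that control them, were followed from mouse duct epithelium into organoid culture. The set holds 33 genes among the 31228 rows of the deposited expression table. Its members were chosen by name, as targets and regulators of the sterol regulatory element binding proteins (SREBPs), by someone who had seen results of these data, the contrasts described here included. The levels of the members in organoids against epithelium are therefore given as a description, without a test. All 33 names were found, each in a single row.

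RNA came from C57BL/6 mice, and the labels name no allele and give no age. There were 1 library of extrahepatic bile duct epithelium, 1 of pancreatic duct epithelium, 3 of bile duct organoids and 3 of pancreatic duct organoids. Epithelia were taken from ducts dissected under a microscope, minced, digested with collagenase IV and lysed without a sort. Organoids were grown from such digests in Matrigel, a basement membrane gel, and collected after 3 to 4 passages. Their expansion medium held B27 supplement, EGF, R-Spondin-1, Noggin, FGF10 and nicotinamide, and Wnt3A conditioned medium and Y27632 were withdrawn once lumens had formed. No label says whether the organoid replicates came from separate animals, so spread between them may be technical.

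Cells meet their need for cholesterol by making it and by taking it up. The SREBP precursors sit in the membrane of the endoplasmic reticulum, bound to the escort protein Scap. When sterol in that membrane is low, Scap carries SREBP to the Golgi, where it is cut free to enter the nucleus and switch on the genes of sterol and fatty acid synthesis. When sterol is plentiful, the Insig proteins hold Scap back, and oxysterols activate the liver X receptors (LXRs), which turn on the exporters Abca1 and Abcg1 and the ligase Mylip. Epithelial cells in culture also need lipid for new membrane.

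Levels are FPKM, reads scaled to gene length and library size, after a further scaling between the 8 libraries, and are called scaled FPKM below. Fold values are ratios of scaled FPKM, and log2 differences are on log2(scaled FPKM + 1), which understates changes of low genes. A gene was called higher or lower in organoids when the mean log2 difference reached 1 (2-fold) and none of the 3 cultures fell on the other side of the epithelium. The libraries held between 12876470 and 20828217 reads or read pairs, as recovered from the deposited values. The scaling itself lowers organoids against epithelium by 0.27 (bile duct) and 0.28 (pancreatic duct) on the log2 scale, and all differences are relative to that shift.

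The epithelium libraries held many cell kinds besides duct epithelium. A list of 10 duct epithelium markers, among them Krt7, Krt19, Epcam and Cdh1, summed to 2933 scaled FPKM in the bile duct epithelium library, to 731 in that of the pancreatic duct and to between 5079 and 10980 in organoids. The 10 acinar markers summed to 21760 and 45760 in the epithelia and to at most 7.58 in an organoid, where 6 of the 10 were at 0 in every culture. Fibroblast, smooth muscle, endothelium and leukocyte markers were likewise near 0 in the organoids. The 10 hepatocyte markers summed to 467 in the bile duct epithelium and 139 in the pancreatic duct epithelium. In organoids they summed to between 16.5 and 142, with 2 of the 10 at 0 in every culture. The part of hepatocytes in the differences below was not tested. Mitochondrial genes took 24.9% and 18.8% of summed FPKM in the epithelia and between 5.43% and 7.29% in organoids, and the part of this in the differences below was not tested. In bulk RNA such as this, a gene can be lower because fewer cells make it or because each cell holds less, and these cannot be told apart.

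In both organs the organoids had several-fold more RNA for nearly every step of cholesterol synthesis than the epithelium. Of the 33 members, 23 were called higher and 3 lower in bile duct organoids, where 12.5% of all genes were called higher and 26.3% lower. In pancreatic duct organoids 27 were called higher and 2 lower, against 15.2% and 25.3% of all genes. The number called higher in both organs was 23 and lower in both 2, against 10.5% and 20.2% of all genes, and none was called in opposite directions. The members were chosen with this contrast in view, so nothing is read from these shares. The median log2 difference of the 33 was 1.71 in bile duct and 1.62 in pancreatic duct, beside -0.09 and -0.08 over all genes compared.

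**Figure D1:**
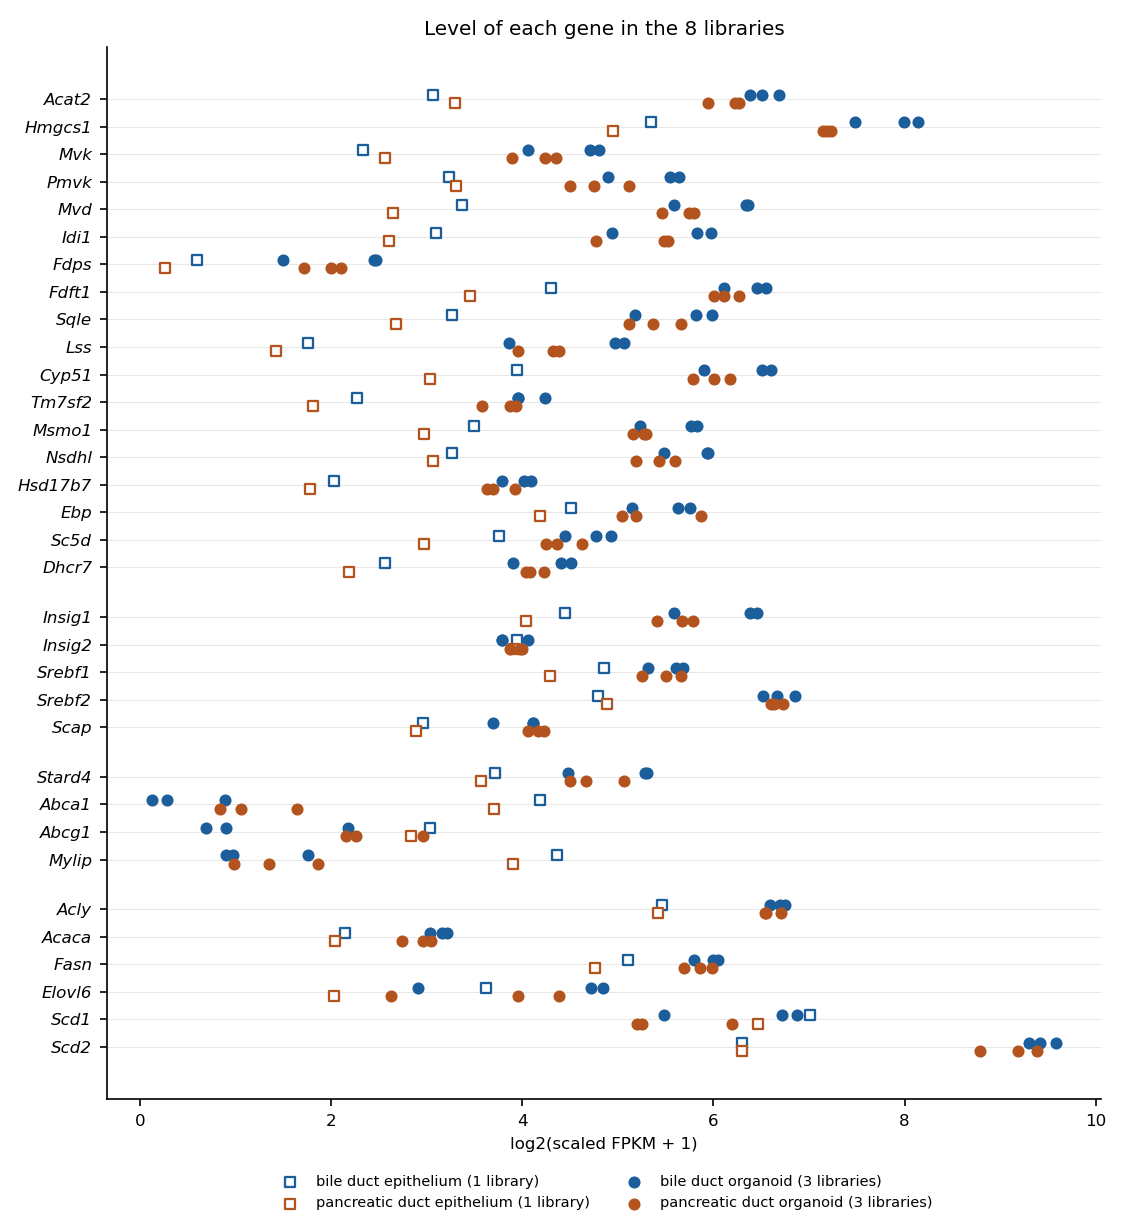
Level of each of the 33 genes, as log2(scaled FPKM + 1) on the horizontal axis, in the 2 epithelium libraries (open squares) and the 6 organoid libraries (filled circles), bile duct in blue and pancreatic duct in orange. Sterol synthesis enzymes stand to the right of their epithelium in all organoids, and Abca1 and Mylip stand to the left.

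The 18 enzymes of sterol synthesis, which lead from acetyl-CoA to cholesterol, moved the most evenly. In pancreatic duct all 18 were called higher in organoids, with a median log2 difference of 2.26. In bile duct 17 were, with a median of 2.16, and Sc5d fell just short of the threshold.

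The entry of the pathway joins acetyl units. Acat2, the cytosolic thiolase that makes acetoacetyl-CoA, stood at 7.40 scaled FPKM in bile duct epithelium and at 82.5, 89.9 and 102 in bile duct organoids 1, 2 and 3, 12.4-fold higher in the mean. In pancreatic duct it went from 8.85 to 74.0, 60.4 and 76.0, 7.93-fold higher. Every organoid lay far above both epithelia. The transcripts of Acat2 share 39.1% of their 50-base words with other annotated genes, mainly Acat3, so reads of these genes may have been split or lost and its level is uncertain.

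Hmgcs1 makes HMG-CoA, the precursor of mevalonate (ENSMUSG00000093930, GRCm38 chromosome 13, 119690462 to 119708086). Its level was 39.6 scaled FPKM in bile duct epithelium against 177, 281 and 254 in the bile duct organoids. In pancreatic duct it had 29.95 in epithelium and 149.6, 145 and 141 in organoids. The organoid means were 237.5 ± 54.0 and 145.1 ± 4.50 (SD, n = 3 each), or 5.99-fold and 4.85-fold above the epithelium. Organoids and epithelia did not overlap, and all 3 bile duct cultures lay above all 3 pancreatic duct cultures.

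The mevalonate steps followed. Mvk and Pmvk, the kinases that phosphorylate mevalonate, were 5.60-fold and 4.88-fold higher in bile duct organoids and 3.45-fold and 3.03-fold higher in pancreatic duct organoids. Mvd, which decarboxylates the product, went from 9.31 scaled FPKM in bile duct epithelium to 47.1, 80.1 and 81.0 in organoids, and from 5.26 in pancreatic duct epithelium to 54.4, 42.9 and 52.7. Idi1, the isomerase that makes the reactive isoprene unit, was 6.52-fold and 7.54-fold higher. Fdps, which joins isoprene units into farnesyl diphosphate, was the least abundant of the enzymes. It rested on 24 reads in bile duct epithelium against 137, 410 and 373 in organoids, and on 11 reads in pancreatic duct epithelium against 152, 251 and 285. Fdps shares 26.2% of its 50-base words with other genes, several of them predicted genes, so its low level is uncertain although its direction was the same in all cultures. Idi1 (25.3%) and Fdft1 (26.5%) share as much.

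Squalene formation and ring closure came next. Fdft1, squalene synthase, was 6.95-fold higher in pancreatic duct organoids and 4.4-fold in bile duct organoids. Sqle, the squalene epoxidase and a slow step of the pathway, stood at 8.59 scaled FPKM in bile duct epithelium and at 35.3, 62.3 and 55.6 in organoids. In pancreatic duct Sqle stood at 5.39 and then at 49.5, 33.8 and 40.2. Lss, which folds the epoxide into lanosterol, had among the largest ratios. Its level went from 2.37 to 13.5, 32.5 and 30.25 in bile duct and from 1.69 to 19.0, 14.5 and 19.85 in pancreatic duct, 10.7-fold and 10.5-fold in the mean.

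The steps after lanosterol trim and rearrange the sterol. Cyp51, the lanosterol demethylase, went from 14.4 scaled FPKM to 58.7, 96.1 and 90.35 in bile duct and from 7.21 to 71.0, 54.1 and 63.4 in pancreatic duct. The next enzymes, Tm7sf2 (a sterol reductase), Msmo1 (a methyl oxidase), Nsdhl (a sterol dehydrogenase) and Hsd17b7 (a keto reductase), were between 4.10-fold and 6.37-fold higher in bile duct and between 5.13-fold and 5.65-fold higher in pancreatic duct. Dhcr7, the last reductase to cholesterol, was 3.80-fold and 4.60-fold higher.

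Ebp, a sterol isomerase, and Sc5d, a desaturase, had the smallest ratios. Ebp went from 21.7 to 34.6, 48.4 and 53.1 scaled FPKM in bile duct and from 17.2 to 57.6, 32.05 and 35.4 in pancreatic duct. Its log2 difference was 1.01 ± 0.32 in bile duct and 1.18 ± 0.44 in pancreatic duct (SD, n = 3). Leaving out bile duct organoid 2 or 3, or pancreatic duct organoid 1, brought Ebp under the threshold, to 0.95, 0.88 and 0.93. Sc5d went from 12.5 to 20.7, 29.35 and 26.3 in bile duct, a log2 difference of 0.95 ± 0.25, and reached 1.09 without bile duct organoid 1. Both genes were higher than the epithelium in all 6 cultures.

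**Figure D2:**
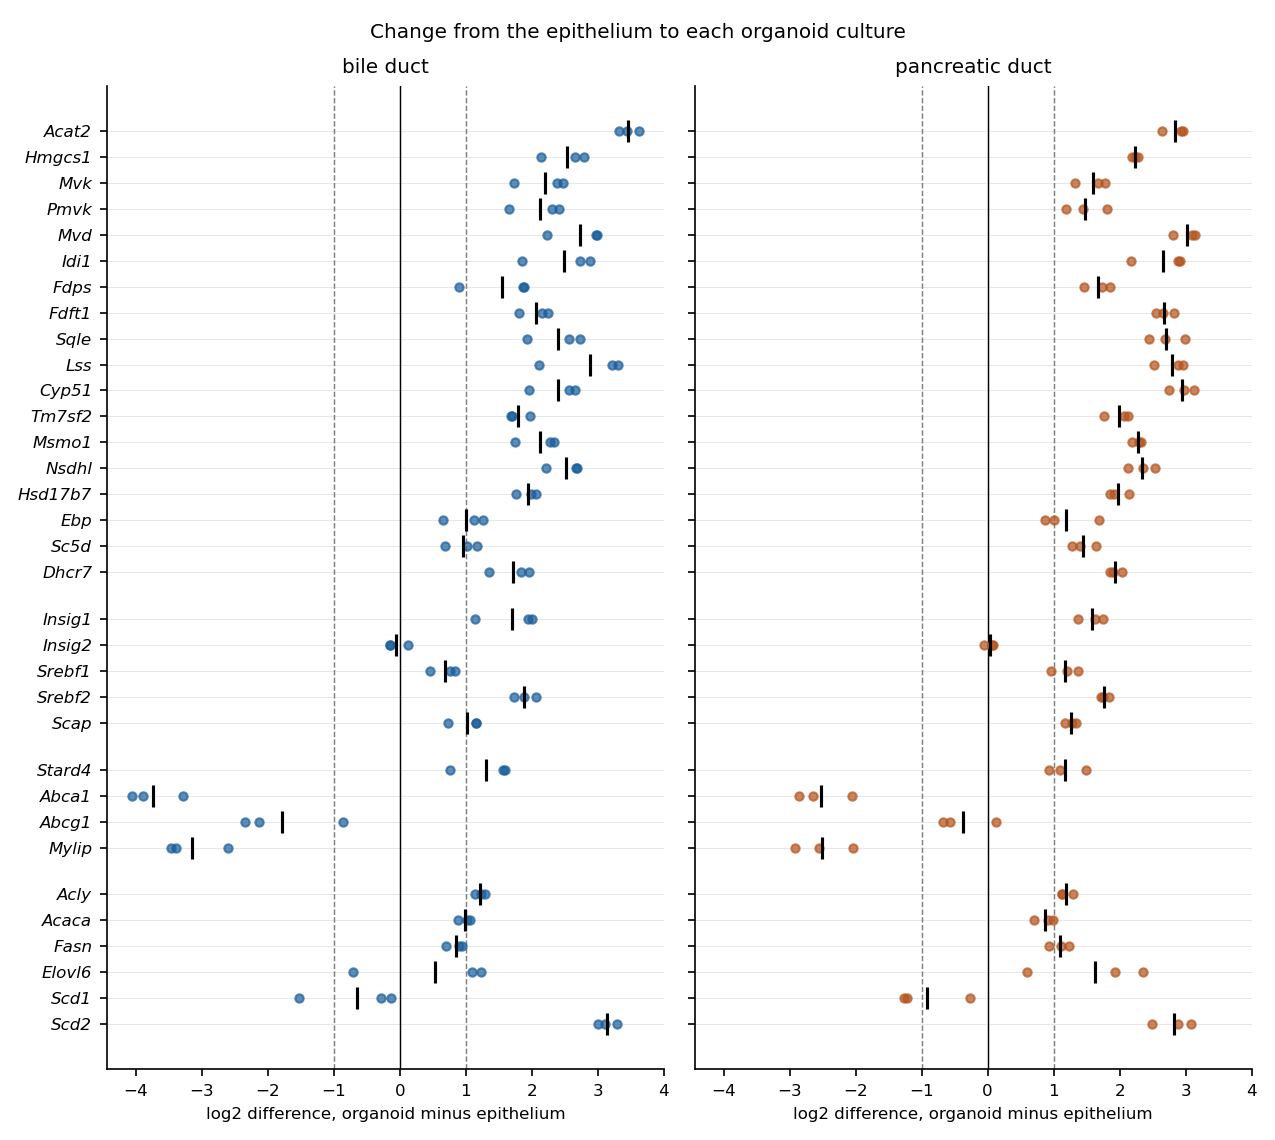
Log2 difference of each organoid culture from the epithelium of its organ (dots) and the mean of the 3 cultures (black bars), bile duct left and pancreatic duct right, with dashed lines at the 2-fold threshold. Sterol enzymes lie right of 0 in all cultures, Abca1 and Mylip lie left of it, and Insig2 sits at 0.

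How far these ratios exceed the gain in duct epithelium differed by organ. Summed over the 18 enzymes, the level was 186 scaled FPKM in the epithelium of the bile duct and 134 in that of the pancreatic duct, and the organoid means were 5.27-fold and 5.40-fold higher. Divided by the sum of the 10 duct markers of the same library, a ratio that no scaling between libraries touches, the enzymes were at 0.0634 in bile duct epithelium and at 0.0731, 0.175 and 0.157 in bile duct organoids, or 2.13-fold higher in the mean. In pancreatic duct the same ratio was 0.184 in epithelium and 0.0717, 0.0679 and 0.145 in organoids, or 0.516 times the epithelium. Divided by Epcam alone, a surface protein of epithelial cells, the mean organoid ratio was 3.11 times the epithelium in bile duct and 0.542 times in pancreatic duct. Relative to the 10 markers, the enzymes were thus higher in bile duct organoids 2 and 3 and below the epithelium in all 3 pancreatic duct organoids. Bile duct organoid 1 was close to its epithelium by the 10 markers and by Epcam (0.740 against 0.744), but not by Krt19, a duct keratin, at 0.937 against 0.374. These divisions were chosen after the values had been seen. Duct markers also differ in level between cultures, and the part of cell makeup in the enzyme differences was not tested.

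The promoters were searched for the sterol regulatory element and for sites of 2 factors known to work with SREBPs. Known SREBP targets are partly recognised by such sites, so their shares are not independent of the choice of members. RefSeq promoter windows of GRCm38.p6, from 250 bases before to 50 after each annotated start, were available for 26 of the 33 members. The 4 motifs below were searched on both strands, and a gene counted as holding a motif if any of its windows did. CCAAT, the site of the factor NF-Y, was in 21 of the 26 (80.8%) and in 41.1% of all 27025 genes with a window. GGGCGG, a site of Sp1, was in 22 (84.6%) and in 38.2% of all genes. The sterol regulatory element TCACNCCAC was in 1 of the 26, Hmgcs1, and in 1.44% of all genes. The looser form TCACNNCAC, which takes in the stricter one, was in 4 (15.4%) and in 4.37% of all genes. Matches are a description of letters in these windows and not a measurement of binding.

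The 4 upstream stretches with a match to the looser element are shown, whatever the call of their genes. All 4 genes were called higher in the organoids of both organs, as were 17 of the 18 sterol enzymes. Each is written in the direction of its gene, with matches to TCACNNCAC and to CCAAT (or ATTGG, the same site on the other strand) in capitals. In Msmo1 a CCAAT and the looser element overlap. They lie at chr13:119690154-119690282 (plus strand) for Hmgcs1, chr1:169969254-169969382 (minus strand) for Hsd17b7, chr8:64733602-64733730 (minus strand) for Msmo1 and chr7:143823209-143823337 (plus strand) for Dhcr7.
Hmgcs1: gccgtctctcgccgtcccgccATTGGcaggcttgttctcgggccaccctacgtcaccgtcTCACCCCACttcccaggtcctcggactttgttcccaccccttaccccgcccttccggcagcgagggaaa
Hsd17b7: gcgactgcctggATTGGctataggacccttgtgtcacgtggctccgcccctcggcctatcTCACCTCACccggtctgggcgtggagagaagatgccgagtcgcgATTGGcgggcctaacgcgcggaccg
Msmo1: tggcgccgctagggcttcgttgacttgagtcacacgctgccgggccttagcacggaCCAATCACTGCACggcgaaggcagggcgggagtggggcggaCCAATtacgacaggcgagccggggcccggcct
Dhcr7: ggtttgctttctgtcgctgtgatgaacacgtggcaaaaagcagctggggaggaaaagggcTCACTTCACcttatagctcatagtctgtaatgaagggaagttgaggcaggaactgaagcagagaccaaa

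The matches begin 137 bases before the RefSeq start in Hmgcs1, 117 in Hsd17b7, 92 in Msmo1 and 130 in Dhcr7, and all 4 run in the direction of the gene. On the other strand, 1 CCAAT site lies within the printed stretch of Hmgcs1 and 2 within that of Hsd17b7. The Dhcr7 stretch, upstream of 1 of its 3 annotated starts, holds none.

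Of the 5 control genes, 3 were called higher in organoids of the bile duct and 4 in those of the pancreatic duct. With a scaling set by genes of at least 10 FPKM, chosen after seeing the data, Scap lost its call in both organs (0.68 and 0.88) and Srebf1 in pancreatic duct (0.76), which left 2 in each. Srebf2, whose product drives the cholesterol genes, stood at 26.7 scaled FPKM in bile duct epithelium and at 90.4, 115 and 101 in organoids. In pancreatic duct it stood at 28.6 and then at 105, 98.05 and 96.2. The mean was 3.82-fold and 3.48-fold higher, and the 6 organoids lay within 1.27-fold of each other.

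Srebf1, which favours the fatty acid genes, differed less. It had 27.9 scaled FPKM in bile duct epithelium against 38.8, 50.3 and 47.9 in organoids, a log2 difference of 0.68 ± 0.19 that was not called, and 18.6 in pancreatic duct epithelium against 37.1, 44.3 and 49.65, a difference of 1.18 ± 0.21 (SD, n = 3 each). The ratio of Srebf2 to Srebf1 was 0.957 and 1.54 in the bile duct and pancreatic duct epithelia and between 1.94 and 2.83 in the organoids. Scap was at 6.79 and 6.37 scaled FPKM in the epithelia and lay between 11.9 and 17.7 in the organoids. Its log2 difference in bile duct, 1.01 ± 0.24, dropped to 0.94 when bile duct organoid 2 or 3 was left out, which ended the call.

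The Insig genes, which encode the proteins that retain Scap, went different ways. Insig1, itself an SREBP target, rested at 20.8 scaled FPKM in bile duct epithelium and at 47.0, 86.5 and 82.6 in organoids. In pancreatic duct Insig1 was at 15.5 and then at 41.45, 49.8 and 54.4. Insig2 was at 14.35 and 14.1 in the epithelia and between 12.8 and 15.6 in the 6 organoids, so epithelia and organoids overlapped. The ratio of Insig1 to Insig2 was 1.45 and 1.1 in the epithelia and between 3.01 and 6.74 in the organoids.

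The members that remove sterol or its uptake stood on the opposite side. Abca1, which exports cholesterol to lipoproteins (ENSMUSG00000015243, GRCm38 chromosome 4, 53030787 to 53159895), stood at 17.2 scaled FPKM in bile duct epithelium and at 0.854, 0.0902 and 0.219 in bile duct organoids 1, 2 and 3. In pancreatic duct it had 12 in epithelium and 0.786, 2.12 and 1.08 in organoids. The epithelial levels were 44.3-fold and 9.03-fold above the organoid means, and the lowest organoid value rested on 20 reads. Without bile duct organoid 1 the first ratio was 111. All organoids lay below both epithelia.

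Mylip, a ligase that marks lipoprotein receptors for breakdown, was at 19.6 scaled FPKM in bile duct epithelium and at 2.38, 0.968 and 0.858 in organoids. In pancreatic duct it had 13.95 and then 0.976, 1.54 and 2.62. The epithelia were 14-fold (21.5-fold without bile duct organoid 1) and 8.14-fold above the organoid means. Abcg1, an exporter that works beside Abca1, was at 7.22 in bile duct epithelium and at 3.50, 0.609 and 0.869 in organoids, and was called lower there. In pancreatic duct Abcg1 was at 6.11 against 3.77, 6.79 and 3.44, so that organoid 2 exceeded the epithelium and the gene was not called. Stard4, a carrier of sterol between membranes and an SREBP target, was called higher in both organs, with 12.15 and 10.9 in the epithelia and between 21.3 and 38.6 in the organoids, but not with the scaling set by genes of at least 10 FPKM (0.96 and 0.77).

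Macrophages, which use these exporters heavily, were part of the epithelium libraries. The 8 macrophage markers summed to 566 and 471 scaled FPKM in the epithelia and to between 2.58 and 13.1 in the organoids, with 2 of the 8 at 0 in every culture. Lyz2, a macrophage lysozyme, had 345.5 and 309 in the epithelia and at most 0.815 in an organoid. The part of these cells in the differences of Abca1, Abcg1 and Mylip was not tested.

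The fatty acid genes were more mixed, with 2 of 6 called higher in organoids of the bile duct and 4 of 6 in those of the pancreatic duct. With the scaling set by genes of at least 10 FPKM these counts were 1 and 2, and Scd1 was called lower in both organs. Acly, which supplies cytosolic acetyl-CoA, went from 43.0 scaled FPKM to 106, 103 and 95.5 in bile duct and from 41.7 to 92.1, 103 and 92.7 in pancreatic duct. Acaca, which makes malonyl-CoA, and Fasn, the fatty acid synthase, lay near the threshold. The log2 difference of Acaca was 0.99 ± 0.09 and 0.87 ± 0.16, and that of Fasn was 0.84 ± 0.13 and 1.09 ± 0.15, in bile duct and pancreatic duct (SD, n = 3 each). Acaca reached 1.04 in bile duct without organoid 1. It shares 30.4% of its 50-base words with other genes. All organoids lay above the epithelium of their organ for these 3 genes.

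The stearoyl-CoA desaturases, which put a double bond into saturated fatty acids, differed from each other. Scd2 (ENSMUSG00000025203, GRCm38 chromosome 19, 44293676 to 44306864) was at 77.9 scaled FPKM in bile duct epithelium and at 630.1, 682 and 767 in organoids, 8.90-fold higher in the mean. In pancreatic duct Scd2 had 77.6 and then 441, 582 and 668, 7.26-fold higher. It was the most abundant member in every organoid. Its neighbour Scd1 (chromosome 19, 44394451 to 44407709) had 128 in bile duct epithelium and 43.7, 117 and 104 in organoids, and 87.4 in pancreatic duct epithelium and 35.6, 37.05 and 72.2 in organoids.

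Scd1 thus lay below the epithelium in all 6 cultures, at log2 differences of -0.65 ± 0.76 and -0.92 ± 0.56 that were not called. Without pancreatic duct organoid 3 the second value was -1.24, past the threshold. The ratio of Scd2 to Scd1 was 0.610 and 0.888 in the epithelia and between 5.85 and 15.7 in the organoids. Scd1 and Scd2 share 4.56% and 3.97% of their 50-base words with other genes, which include each other, Scd3 and Scd4.

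Elovl6, which lengthens palmitate, varied most between cultures among the 6 fatty acid genes. In bile duct it was at 11.3 scaled FPKM in epithelium and at 6.53, 25.3 and 27.8 in organoids, on both sides of the epithelium, and its difference was 0.53, or 1.16 and past the threshold without organoid 1. In pancreatic duct it was at 3.09 and then at 14.5, 5.16 and 19.8. The mean difference there was 1.62 ± 0.92 (SD, n = 3).

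Fat cells make these enzymes too. The 10 adipocyte markers summed to 513 scaled FPKM in the bile duct epithelium library, to 112 in that of the pancreatic duct and to between 21.3 and 48.9 in organoids, with 1 of the 10 at 0 in every culture. Nearly all of the organoid sum was Gpd1, a glycerol phosphate dehydrogenase that other cells also make, which was at 35.3 and 8.57 in the epithelia and between 20.9 and 48.75 in organoids, and was called higher in pancreatic duct organoids. Adipoq, the hormone of fat cells, had 46.0 and 7.79 in the epithelia and at most 0.0365 in an organoid. The part of these cells in the epithelial levels of Scd1, Fasn, Acly and Elovl6 was not tested.

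Other genes of lipid metabolism were taken from lists that the set does not hold. Their counts stand beside 12.5% of all genes called higher and 26.3% lower in bile duct organoids, and 15.2% and 25.3% in pancreatic duct organoids. Among 11 further genes of isoprenoid and sterol metabolism, 5 were called higher in organoids of the bile duct and 2 in those of the pancreatic duct, and 0 lower. With the scaling set by genes of at least 10 FPKM these were 2 and 0 higher, and 1 lower in each organ. The most changed in both were Rdh11, a retinol dehydrogenase under SREBP control, with log2 differences of 1.65 and 1.32, and Hsd17b12, a reductase of fatty acid elongation, with 1.03 and 1.32. Tmem97, a sterol-responsive membrane protein, had 1.66 and 0.85. Of 10 genes for SREBP processing and Insig turnover, 1 was called higher in bile duct and none in pancreatic duct. With the scaling set by genes of at least 10 FPKM, 0 were called higher in either organ. Rnf145, a sterol-sensing ligase and LXR target, was called lower in both, at -1.13 and -1.01.

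Of 24 further fatty acid synthesis genes compared, 6 were called higher and 4 lower in bile duct organoids, and 8 higher and 3 lower in pancreatic duct organoids. With the scaling set by genes of at least 10 FPKM, 4 were higher and 5 lower in bile duct and 6 higher and 3 lower in pancreatic duct. Slc25a1, which exports citrate for Acly, went from 30.9 and 20.4 scaled FPKM in the epithelia to between 76.6 and 103 in organoids. Acsl4, an acyl-CoA synthetase, was higher by 1.77 and 1.81 on the log2 scale. Thrsp, a lipogenic protein rich in fat and liver, was at 33.3 and 22.8 in the epithelia and at most 0.152 in an organoid.

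Of the genes of sterol transport, storage and LXR signalling, 0 of 21 in bile duct were called higher and 8 lower, and in pancreatic duct 1 of 18 higher and 5 lower. Among those that reached 10 scaled FPKM, the widest in both organs were Lrp1, a lipoprotein receptor (-3.60 and -3.54), Cyp27a1, which makes an oxysterol (-2.83 and -2.41), and Lipa, the lysosomal lipase (-1.83 and -1.11). Of 17 fatty acid oxidation genes compared in each organ, 0 were called higher and 6 lower in bile duct and 2 higher and 2 lower in pancreatic duct. The scaling set by genes of at least 10 FPKM gave 0 and 8 in bile duct and 1 and 3 in pancreatic duct. Pdk4, which turns cells from glucose to fat use, was lower by 3.61 and 3.21 on the log2 scale. Hadhb, of the oxidation spiral, was called lower in bile duct, with -1.17, and not in pancreatic duct, with -0.89.

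The epithelium libraries of the organs were compared next. With 1 library each, the comparison has no replicate check, and their cell makeup differed, with 9 of the 10 duct markers at least 2-fold higher in bile duct. Of the 32 members with at least 1 scaled FPKM in either epithelium, 1 was at least 2-fold higher in bile duct, against 9.1% of all genes, and 0 were at least 2-fold lower, against 4.57%. The exception was Elovl6, at 11.3 against 3.09 scaled FPKM, a log2 difference of 1.59. Cyp51 (0.91), Fdft1 (0.85) and Sc5d (0.79) came next among the enzymes, all higher in bile duct. Scd2 was at 77.9 and 77.6 and Insig2 at 14.35 and 14.1. The median difference over the 32 was 0.36, beside -0.03 over all genes compared.

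The organoid groups were compared with limma, a linear model with variance shared across genes, on 11986 genes. Of the 32 members tested, 0 passed an adjusted p under 0.05, as was the case for all genes (0%), and all 32 had an adjusted p = 1.00 by limma. At an unadjusted p under 0.05 there were 3 members, against 2.51% of all genes. Abca1 was not tested, because fewer than 3 organoids reached 1 scaled FPKM.

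The sign was positive for 28 of the 32 members and negative for Abcg1, Mylip, Scap and Insig2. All 18 sterol enzymes had the higher mean in bile duct organoids, as did 50.1% of all genes tested, and 17 did without pancreatic duct organoid 2, the exception being Ebp. Their median log2 difference was 0.33, beside 0.00 over all genes, and was 0.53 without bile duct organoid 1 and 0.20 without bile duct organoid 2. All 8 proliferation markers also had the higher mean in bile duct organoids, with a median of 0.29, and their part in the enzyme difference was not tested. The 18 enzymes share the same 6 libraries and are not independent, so their common sign is no replication. Hmgcs1 had the largest difference among them, 0.68 (SE 0.19, limma adjusted p = 1.00). Acat2 differed by 0.38 (SE 0.14), Pmvk by 0.57 (SE 0.25), and Srebf2 by 0.03 (SE 0.12).

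Among the remaining genes, Insig1 was higher in bile duct organoids by 0.52 (SE 0.26) and Scd1 by 0.81 (SE 0.45). Abcg1 was lower by 1.20 on the log2 scale (SE 0.44, limma adjusted p = 1.00). In 3 members, Acat2, Hmgcs1 and Tm7sf2, every bile duct culture lay above every pancreatic duct culture, which held for 3.05% of all genes tested. In none did every bile duct culture lie below, which held for 3.67%.

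The comparison leaned on single cultures. Without bile duct organoid 1, 18 members had an unadjusted p under 0.05 in place of 3, and 0 passed after adjustment, while the share of all genes went from 2.51% to 8.5%. Without pancreatic duct organoid 3, 6 members had an unadjusted p under 0.05 (3.64% of all genes), and 10 genes of the whole table passed the adjusted threshold, none of them a member. Without bile duct organoid 2 or 3, or pancreatic duct organoid 2, the number of members was 1, with 1.31%, 1.61% and 1.95% of all genes.

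**Figure D3:**
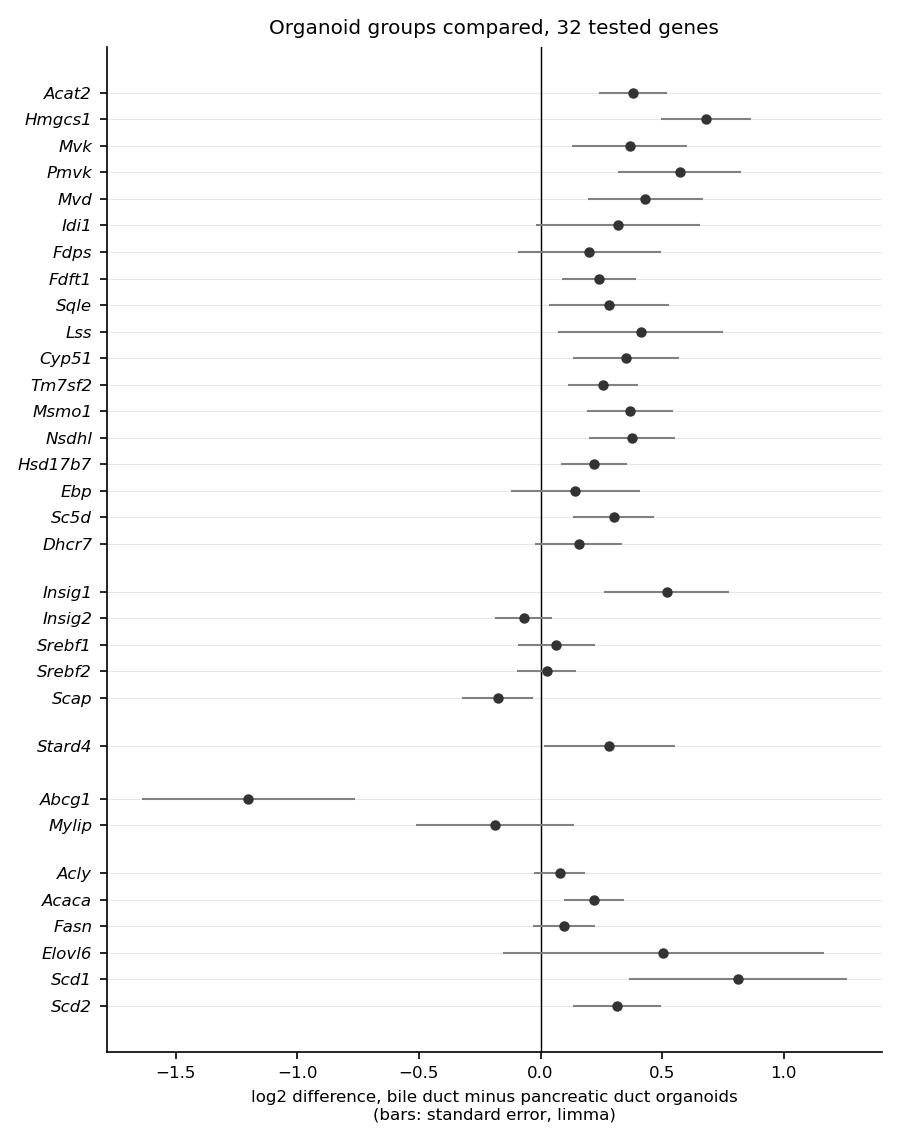
Log2 difference between bile duct and pancreatic duct organoids with its standard error from limma, for the 32 members tested. All 18 sterol enzymes lie right of 0, Abcg1 lies at -1.20, and no gene passed the adjusted threshold.

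The members varied between cultures of the same organ as well as between the organs. Over the 6 organoids the median SD of the 18 enzymes was 0.34 on the log2 scale, beside 0.21 over all genes tested. This SD pools both organs, so it includes the difference between them. By this measure, which damps low genes, Elovl6 (0.94), Abcg1 (0.88) and Scd1 (0.75) varied most among the members. Acly (0.09), Insig2 (0.11) and Srebf2 (0.12) varied least.

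The bile duct cultures differed in the same order for most enzymes, and the pancreatic duct cultures were more mixed. Bile duct organoid 2 was the highest of the 6 in 13 of the 18 enzymes, bile duct organoid 3 in 4 and pancreatic duct organoid 1 in 1. Pancreatic duct organoid 2 was the lowest in 10. Within bile duct, organoid 1 lay below the group mean in all 18 enzymes and was the lowest of the 3 in 17, the exception being Tm7sf2. Within pancreatic duct, organoid 1 was the highest of the 3 in 10 enzymes and the lowest in 3, organoid 2 the lowest in 12 and the highest in 3, and organoid 3 above the group mean in 11. Averaged over the 18, the cultures stood at 0.39 (bile duct 2), 0.34 (bile duct 3), -0.08 (pancreatic duct 1), -0.12 (pancreatic duct 3), -0.23 (bile duct 1) and -0.30 (pancreatic duct 2) from the mean of the 6 on the log2 scale.

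The LXR targets ran nearly the opposite way. Averaged over Abca1, Abcg1 and Mylip, bile duct organoids 2 and 3 were lowest, at -0.72 and -0.63 from the mean of the 6, and pancreatic duct organoid 2 was highest, at 0.66. Bile duct organoid 1, at 0.28, had the highest level of all 3 genes within its group. Abca1 spanned 23.5-fold, Abcg1 11.1-fold and Mylip 3.05-fold between the highest and lowest culture, against 1.41-fold to 2.51-fold for the sterol enzymes. Elovl6 and Scd1 sided with the enzymes in bile duct organoids 2 and 3 and were also above their mean in pancreatic duct organoid 3. With 6 cultures these orders are a description.

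**Figure D4:**
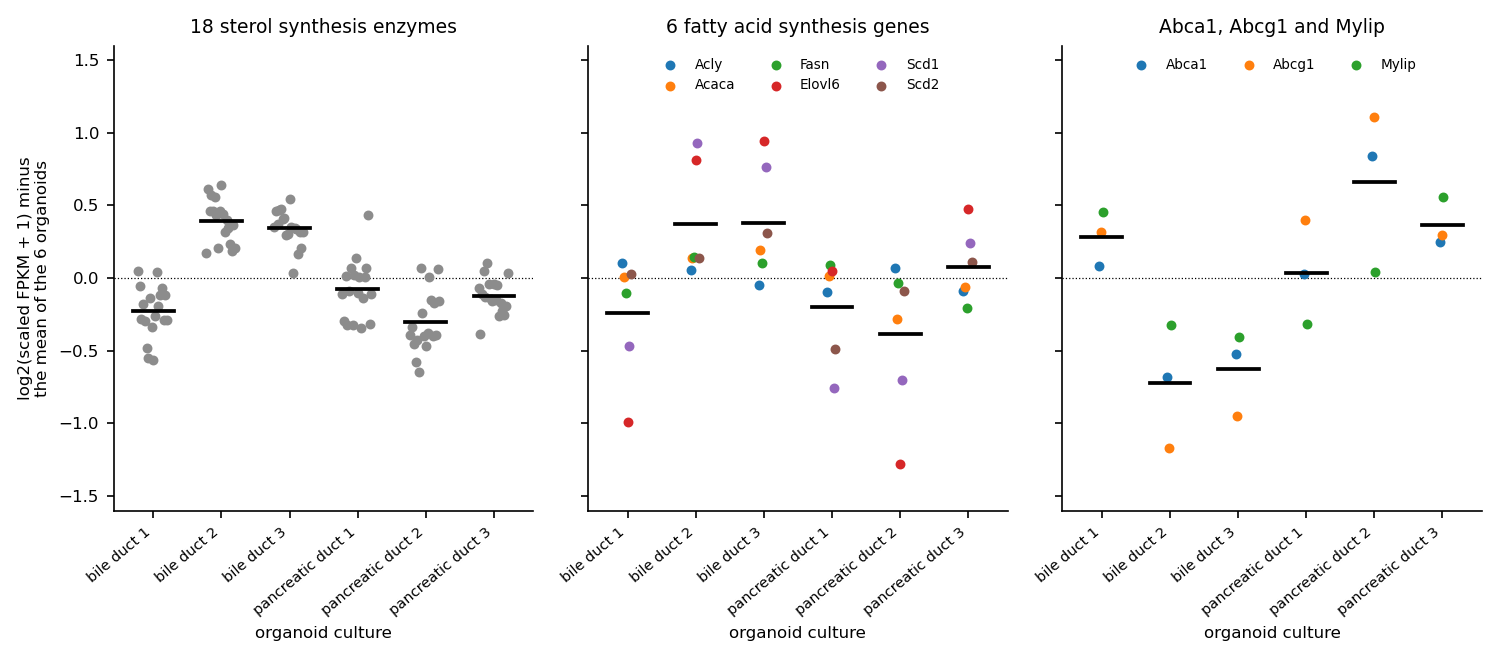
Deviation of each gene from its mean over the 6 organoids, on log2(scaled FPKM + 1), for each culture (dots are genes, black bars their mean), for sterol enzymes, fatty acid genes and LXR targets. Bile duct organoids 2 and 3 are high for the enzymes (0.39 and 0.34) and low for the LXR targets (-0.72 and -0.63).

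Proliferation genes also differed between the cultures. Mki67, a protein of dividing cells, had 23.4, 62.4 and 61.2 scaled FPKM in bile duct organoids 1, 2 and 3 and 30.35, 18 and 52.2 in pancreatic duct organoids 1, 2 and 3, against 6.89 and 3.54 in the epithelia. The 8 proliferation markers summed to between 185.5 and 381 in the organoids and to 73.9 and 54.1 in the epithelia. The cultures highest in sterol enzymes were thus also high in Mki67 and the culture lowest in enzymes was lowest in Mki67, while pancreatic duct organoid 3 was high in Mki67 and below the mean in enzymes. The part of growth rate in the enzyme levels was not tested.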

How the data were processed

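Poly(A) RNA of 8 libraries was sequenced after Trizol extraction and an NEBNext Ultra preparation, per the labels' protocols. The deposited table gives FPKM per gene, made by the authors, and the unit was read from the values. Bowtie2 2.2.3, HISAT2 2.1.0, TopHat2 and HTSeq 0.6.0 are named, without roles, per the submitters' processing notes. Strand setting and filters are not given in the sources used here, and 8 members have exons overlapping a gene on the opposite strand (Hmgcs1, Idi1, Fdft1, Lss, Cyp51, Srebf1, Scap and Elovl6), whose reads cannot be told apart without strand.

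Multiplied by merged exon length (GENCODE M21), FPKM came out as whole reads, within 0.05 of a read, in all 8 libraries for 28229 genes (90.4%). This gave the read numbers, which cover counting error only.

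FPKM was scaled by an unweighted trimmed mean of log ratios over 16541 genes with at least 1 FPKM in a library, trimming 30% of ratios and 5% of levels on each side. Organoid groups were tested with limma 3.58.1 (R 4.3.3, intensity trend) on log2(scaled FPKM + 1), for genes with at least 1 scaled FPKM in at least 3 organoids, with Benjamini-Hochberg adjustment and a threshold of 0.05. Comparisons with an epithelium took genes with at least 1 scaled FPKM in the epithelium or in the organoid mean. The limma script was tested on simulated data. Members and lists were chosen with earlier results of these data known. Apart from the members and markers, genes are named by rule, the 3 per list with the widest shift common to both organs and at least 10 scaled FPKM; 1 gene that the rule names is not reported here. Python 3.11.15, pandas 2.3.3, numpy 2.4.6 and matplotlib 3.10.9 were used. No further columns of samples were left aside.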

Additional observations from a re-analysis of the deposited data

How the results depend on the processing

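Other settings were FPKM as deposited, a pseudocount of 0.1, a minimum of 10 FPKM or none, a replicate block, limma without its trend, and the loss of each organoid in turn. A scaling set by genes with a mean of at least 10 FPKM was added after seeing the data. It shifts organoids against epithelium by -0.65 (bile duct) and -0.72 (pancreatic duct). Members called higher in both organs numbered 23, and between 19 (that scaling) and 26 (FPKM as deposited) under the alternatives run on that count. Sterol enzymes called higher numbered 16 to 18 (bile duct) and 17 to 18 (pancreatic duct), and no called member changed sign. Under the added scaling Acly, Stard4, Ebp and Scap lost their call in both organs and Srebf1 and Fasn in pancreatic duct, while Scd1 was called lower in both (-1.02 and -1.35). Genes called over the whole table moved more. With a minimum of 10 FPKM, 1585 were lower in bile duct organoids, 1536 higher and 1578 lower in pancreatic duct organoids, and 623 higher and 285 lower in bile duct against pancreatic duct epithelium. With the added scaling 1213 were higher in bile duct organoids and 1487 in those of the pancreatic duct, and a pseudocount of 0.1 gave 1138 genes lower in bile duct than in pancreatic duct epithelium. The fewer genes at 10 FPKM follow from fewer genes compared, and the other causes were not tested. With the replicate block limma called 0 genes (281 at an unadjusted p under 0.05). Deviations of same-numbered organoids correlated at -0.106, -0.443 and 0.483, so the numbers do not pair the samples, and not every organoid correlated best with its own number. Leaving out single organoids gave 0 to 10 genes called between the organoid groups, and 0 members. Each epithelium is 1 library, which limits every comparison with it.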
